A study of Homo sapiens with 9 samples.

Results

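The 10 genes described here were chosen by symbol among the 60683 gene IDs counted in 9 RNA-seq libraries of HEK293T, a cell line derived from human embryonic kidney that expresses the SV40 large T antigen. 6 of them are polyglutamine disease genes other than HTT (ATXN1, ATXN2, ATXN3, ATXN7, ATN1 and TBP), and 4 are relatives of these genes that have no known repeat disease (ATXN1L, ATXN2L, ATXN7L3 and RERE). All 10 symbols matched 1 counted ID each and all 10 passed the filter on low counts in every comparison. The libraries formed 3 groups of 3 replicates. The parental line had no insertion. Clones 15 and 37 each descended from a single sorted cell and held in the genome a pair of luciferase reporters inserted with the piggyBac transposon: ATG-(CAG)60-Myc-NLuc, with 60 CAG units ahead of NanoLuc, and ATG-(CAG)0-Myc-FLuc, with 0 units ahead of firefly luciferase. Per the labels, both reporters were expressed at a high level in clone 37 and at a low level in clone 15. Each level was represented by 1 clone, so reporter level and other differences between the clones cannot be told apart. Reads were 75 bp long in the parental and clone 37 libraries and 100 bp in clone 15, which cannot be told apart from clone 15 itself. The labels name no treatment, and the question asked here was how endogenous CAG repeat genes differed between cells with and without the reporters.

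Polyglutamine diseases arise when an in-frame run of CAG codons grows beyond a threshold and the encoded protein gains a long glutamine stretch. ATXN1, ATXN2, ATXN3, ATXN7 and TBP underlie forms of spinocerebellar ataxia, and ATN1 underlies dentatorubral-pallidoluysian atrophy. The proteins have unrelated normal roles. ATXN1 and its paralogue ATXN1L bind the transcriptional repressor CIC, ATXN2 and ATXN2L are RNA-binding proteins that associate with poly(A)-binding protein, and ATXN3 is a deubiquitinase. ATXN7 and ATXN7L3 are subunits of the deubiquitinase module of the SAGA coactivator, ATN1 and RERE are atrophin corepressors, and TBP is the TATA-binding protein used by all nuclear RNA polymerases.

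The repeat itself separates the disease genes from their relatives in the reference. The tracts below are shown because they are the endogenous counterparts of the 60-unit repeat in the reporter. They are written 5′ to 3′ along the transcript, from GENCODE 29 transcripts on GRCh38, with 12 bases of lower-case sequence on each side. Capitals mark the longest in-frame run of CAG, CAA and CAT triplets that starts and ends with a glutamine codon, where CAG and CAA encode glutamine and CAT encodes histidine.
ATXN1 (chr6:16327636-16327722, minus strand): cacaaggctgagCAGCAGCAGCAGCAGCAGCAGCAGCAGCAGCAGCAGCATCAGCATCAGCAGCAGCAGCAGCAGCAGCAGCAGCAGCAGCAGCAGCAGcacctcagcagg
ATXN2 (chr12:111598951-111599019, minus strand): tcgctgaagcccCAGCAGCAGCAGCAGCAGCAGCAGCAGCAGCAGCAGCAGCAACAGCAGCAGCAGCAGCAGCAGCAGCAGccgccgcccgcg
ATXN3 (chr14:92071011-92071040, minus strand): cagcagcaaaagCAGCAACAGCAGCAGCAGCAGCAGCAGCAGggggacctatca
ATXN7 (chr3:63912686-63912715, plus strand): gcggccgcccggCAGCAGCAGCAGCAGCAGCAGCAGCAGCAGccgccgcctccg
ATN1 (chr12:6936717-6936773, plus strand): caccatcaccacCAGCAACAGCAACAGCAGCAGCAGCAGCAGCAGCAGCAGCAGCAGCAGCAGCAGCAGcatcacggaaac
TBP (chr6:170561908-170562021, plus strand): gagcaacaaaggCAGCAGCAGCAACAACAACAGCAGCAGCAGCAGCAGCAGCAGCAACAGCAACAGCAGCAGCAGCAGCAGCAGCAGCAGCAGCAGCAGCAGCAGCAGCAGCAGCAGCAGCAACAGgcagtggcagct
RERE (chr1:8361311-8361319, minus strand): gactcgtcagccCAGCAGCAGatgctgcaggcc
All 7 tracts lie in coding exons. The ATXN1 tract of 29 triplets is broken by 2 CAT triplets into runs of which the longest has 14 uninterrupted CAG units. TBP has 38 triplets, 6 of them CAA, and its longest uninterrupted run is 19 units. ATXN2 holds 1 CAA in 23 triplets and ATN1 holds 2 CAA in 19, so their longest uninterrupted runs are 13 and 15 units. The ATXN7 tract is 10 CAG units without a break, and the ATXN3 tract has 10 triplets with 1 CAA and 8 units in a row. RERE has 3 units in a row, and ATXN1L, ATXN2L and ATXN7L3 have 2. A run of at least 8 units, the shortest among the disease genes, occurs in 0.341% of coding genes in the annotation, and a run of at least 3 in 14.8%. These are reference lengths, and the alleles of the cell line were not measured here. The longest uninterrupted run, 57 bases in TBP, is shorter than the 180 bases of repeat in the reporter. The tract makes up 4.92% of the exon bases of TBP and at most 1.20% of those of any other of the 10 genes. Whether reads from the reporter repeat were counted in these genes was not tested.

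**Figure D1:**
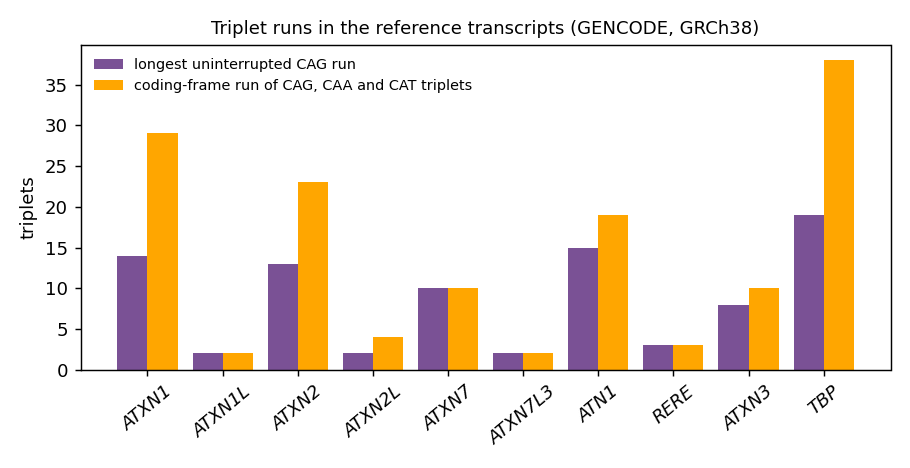
Longest triplet runs in the reference transcripts of the 10 genes (vertical axis, number of triplets), with purple bars for uninterrupted CAG units and orange bars for coding-frame runs of CAG, CAA and CAT. The 6 disease genes have 8 to 19 uninterrupted units, whereas RERE has 3 and the 3 ataxin paralogues have 2.

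Gene counts summed to between 10334090 and 38093340 per library, and the 3 clone 15 libraries were the deepest. The 10 genes had between 336 counts (TBP, clone 37 replicate 2) and 8466 counts (ATXN2L, clone 15 replicate 1) per library, which puts counting error alone at 1.32% to 5.38% of the level in a group's libraries. Levels are given as CPM, the count of a gene as a share of its library's gene counts, scaled to the same total in each library. Parental replicate 2 stood apart: the chi-square per degree of freedom between it and the other parental libraries was 11.5 and 11.6, against 1.99 between replicates 1 and 3. The clone 15 libraries were uneven too, with 9.97 and 8.19 between replicate 2 and the others and 4.53 between replicates 1 and 3, whereas clone 37 ran from 1.77 to 1.93. Read pairs that fell on no annotated feature were 33.7% to 34.6% in clone 15, 25.7% to 29.9% in clone 37 and 26.4% and 28.8% in parental replicates 1 and 3, against 19.2% in parental replicate 2. Pairs with several map positions were 4.59% to 5.98% in clone 15 and 10.4% or more in each of the other libraries. These shares move with clone 15, as its read length does, and cannot be told apart from it. The labels do not say that replicates were separate cultures, so p-values measure the spread between these libraries, which may be technical. All 6 genes listed as marks of the HEK293 lineage were detected in every group. They were not level, with NEFM at 559 CPM in the parental libraries, 2728 in clone 15 and 137 in clone 37, and NEFL at 235, 716 and 60.7. Their part in the results was not tested. Of the markers of other tissues reported here, CD3E, UMOD, SLC12A1 and HBB had a mean of 0 CPM in all groups, so 2 of 3 defining markers of mature kidney were absent. The other 5 had means of at most 0.240 CPM.

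Most of the 10 genes differed between the groups, by less than 2-fold and about as often as genes in general. With edgeR's quasi-likelihood test and an adjusted p under 0.05 as the threshold for a call, 5 of 10 were called in clone 37 against parental, where 54.0% of the 16501 genes tested were called. 3 of them rose (ATXN1L, ATXN2 and RERE) and 2 fell (ATXN1 and ATXN3), against 26.7% of all genes higher and 27.3% lower. In clone 15 against parental 7 of 10 were called, where 51.4% of 17703 genes were. There, 4 rose (ATXN2, ATXN7L3, ATN1 and RERE) and 3 fell (ATXN1, ATXN2L and ATXN3), against 25.1% higher and 26.2% lower among all genes. Between the clones 8 of 10 were called, against a background of 57.7% of 17712 genes. Of these, 3 were higher in clone 37 (ATXN1, ATXN1L and ATXN2L) and 5 lower (ATXN7L3, ATN1, RERE, ATXN3 and TBP), against 28.7% and 29.0% of all genes. The CPM ranges of the 2 groups did not overlap for 7, 8 and 8 of the 10 genes in these comparisons, against 61.7%, 59.5% and 63.5% of all genes tested. These shares lie near the background, so the counts say nothing particular about repeat genes. Without parental replicate 2 the counts were 5 in clone 37 and 8 in clone 15. The clones share the parental libraries, so their changes against parental are not independent. In whole cultures, less RNA per cell and fewer cells with the RNA cannot be told apart.

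The sizes of the changes were modest on either side of the repeat. Among the disease genes, the fitted folds ran from 0.646 to 1.21 in clone 37 and from 0.767 to 1.41 in clone 15. Among the relatives without a long tract they ran from 0.916 to 1.25 in clone 37 and from 0.708 to 1.52 in clone 15. The median log2 fold change of the 10 genes was 0.05 in clone 37 and 0.01 in clone 15, and the median of all genes tested was 0.02 in both. Of the 6 disease genes 3 were called in clone 37 and 4 in clone 15, and of the 4 relatives 2 and 3.

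**Figure D2:**
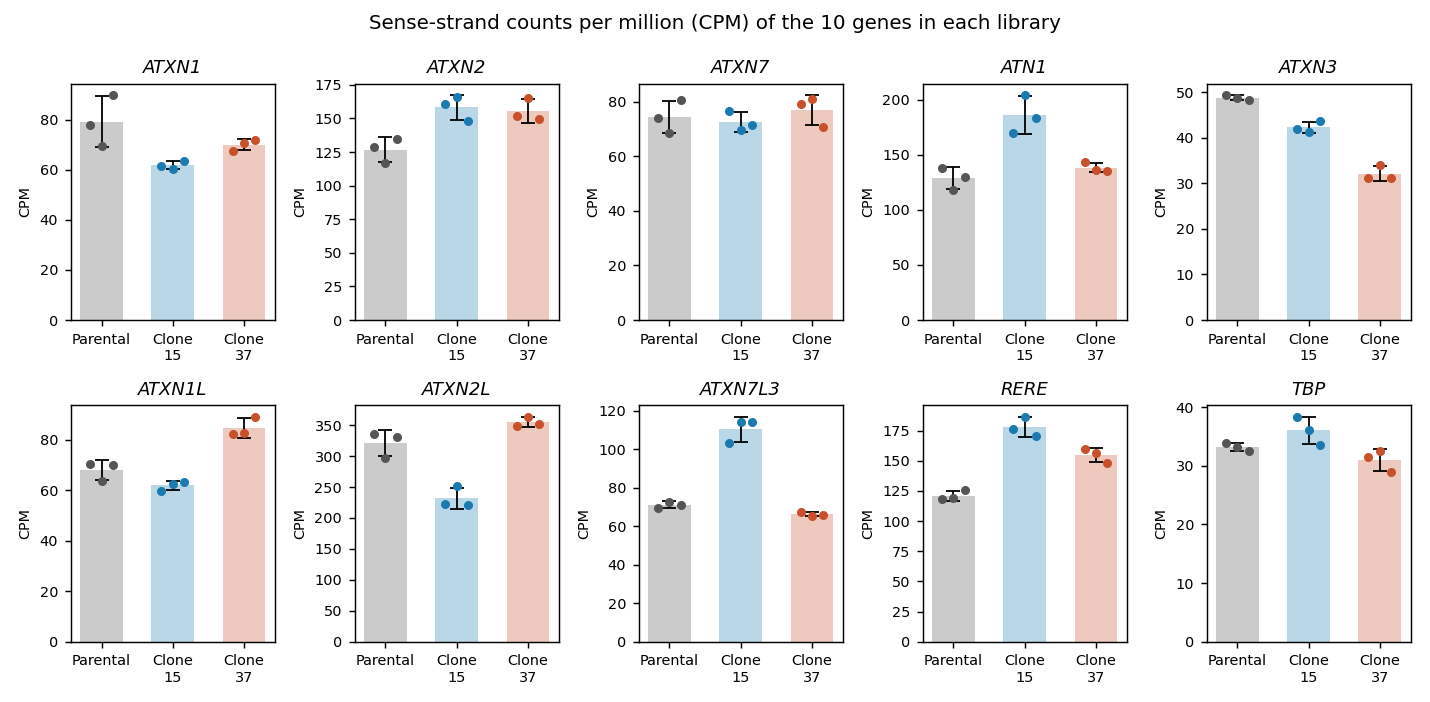
Sense-strand CPM of the 10 genes (vertical axes, each from 0) in the 3 libraries of each group, with the mean as a bar and the SD as an error bar, disease genes ATXN1, ATXN2, ATXN7 and ATN1 above their relatives and ATXN3 above TBP. ATXN3 is lowest in clone 37 and highest in parental, and ATXN7L3 and ATN1 are highest in clone 15 in every library.

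ATXN1 and ATXN1L, the CIC-binding pair, moved apart in clone 37. ATXN1 (ENSG00000124788, chr6:16299112-16761491, minus strand) had 77.7, 69.6 and 89.9 CPM in the parental replicates 1, 2 and 3, 61.4, 60.5 and 63.6 in clone 15 and 67.5, 70.5 and 72.1 in clone 37. Every clone 15 library lay below every parental library, while clone 37 overlapped with parental replicate 2. ATXN1 fell by 0.38 on the log2 scale in clone 15 (SE 0.09, adjusted p 0.000543). It fell by 0.20 in clone 37 (SE 0.08, adjusted p 0.0355). The call in clone 37 was lost without parental replicate 3 (-0.14) or clone 37 replicate 1 (-0.17) or 2 (-0.19), by the DESeq2 test (-0.21, adjusted p 0.0524) and with trends in GC content and length removed (-0.07). Parental ATXN1 had the widest spread of any of the 10 genes in any group, with a coefficient of variation of 12.9%.

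Its paralogue ATXN1L (ENSG00000224470, chr16:71845991-71885268, plus strand) had 70.3, 63.5 and 70.0 CPM in the parental libraries, 59.8, 62.5 and 63.3 in clone 15 and 82.3, 82.4 and 89.1 in clone 37. All clone 37 libraries were above all others, and the clone 15 libraries were below parental by a gap of less than 1 CPM at the closest. ATXN1L rose in clone 37 by 0.29 (SE 0.06, adjusted p 0.000825). In clone 15 the change was -0.17 (SE 0.08, adjusted p 0.0872), which missed the threshold. It passed with all 9 libraries in 1 fit (-0.16, adjusted p 0.0484) and without parental replicate 2 (-0.19, adjusted p 0.0351). Clone 37 was above clone 15 by 0.46 (SE 0.06, adjusted p 3.39e-07) for ATXN1L and by 0.19 (SE 0.06, adjusted p 0.0133) for ATXN1, and the ATXN1 call was lost without clone 37 replicate 3 (0.15). An exon of IST1 shares 2.26% of the exon bases of ATXN1L.

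The ratio of ATXN1 to ATXN1L counts within a library, which does not depend on scaling, kept the groups in separate ranges. Its log2 value was 0.21 ± 0.13 in the parental line, 0.00 ± 0.04 for clone 15 and -0.27 ± 0.04 for clone 37 (SD, 3 libraries each). ATXN1 counts thus exceeded ATXN1L counts in every parental library and were below them in every clone 37 library. Each of the 3 pairwise differences had a two-sided exact permutation p of 0.1, the smallest that 3 libraries against 3 allow, and 0.12 after adjustment over the 12 ratio tests, so no ratio test could pass 0.05.

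ATXN2 and ATXN2L, the RNA-binding pair, showed the largest shift in ratio from parental. ATXN2 (ENSG00000204842, chr12:111443485-111599676, minus strand) had 128, 117 and 135 CPM in the parental libraries, 161, 166 and 148 in clone 15 and 152, 165 and 149 in clone 37. Every library of either clone exceeded every parental library, and the clones overlapped. ATXN2 rose in both clones against parental, with a value of 0.27 in clone 37 (SE 0.06, adjusted p 0.00114) and one of 0.29 in clone 15 (SE 0.08, adjusted p 0.00271). The difference between the clones was -0.02 (SE 0.06, adjusted p 0.752).

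ATXN2L (ENSG00000168488, chr16:28823035-28837237, plus strand) had 335, 296 and 331 CPM in the parental libraries, 222, 251 and 221 in clone 15 and 349, 364 and 352 in clone 37. The 3 groups did not overlap, with clone 15 lowest and clone 37 highest. ATXN2L fell by 0.50 in clone 15 (SE 0.08, adjusted p 1.51e-05). In clone 37 the change of 0.12 missed the threshold (SE 0.06, adjusted p 0.10). Clone 37 exceeded clone 15 by 0.62 (SE 0.05, adjusted p 9.07e-11). Genes on the opposite strand cover 12.54% of the exon bases of ATXN2L. Its counts on that strand were 0.282% of its stranded counts.

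The log2 ratio of ATXN2 to ATXN2L was -1.34 ± 0.05 in the parental line, -1.19 ± 0.05 for clone 37 and -0.55 ± 0.07 for clone 15 (SD, 3 libraries each). No library of one group reached into the range of another. ATXN2 rose while ATXN2L fell in clone 15, and the ratio there was 0.79 above parental on the log2 scale. All 3 pairwise differences again had an exact permutation p of 0.1 (adjusted 0.12).

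ATXN3, the deubiquitinase, had the largest fall of the 10 genes in clone 37. ATXN3 (ENSG00000066427, chr14:92044496-92106625, minus strand) had 49.4, 48.8 and 48.2 CPM in the parental libraries, 41.9, 41.3 and 43.6 in clone 15 and 31.2, 34.1 and 31.1 in clone 37. The 3 groups did not overlap, and the parental libraries agreed closely, with a coefficient of variation of 1.21%. ATXN3 fell by 0.63 in clone 37 (SE 0.07, adjusted p 9.46e-07), a fold of 0.646, and kept direction and call in all 16 alternatives. In clone 15 it fell by 0.24 (SE 0.09, adjusted p 0.0225). That call was lost without clone 15 replicate 1 (-0.22) or 2 (-0.19) and when low counts were not filtered (-0.24). After trends in GC content and length were removed, the value was 0.05 (adjusted p 0.656). Clone 37 was below clone 15 by 0.39 (SE 0.07, adjusted p 5.55e-05), which became -0.60 with the trends removed. Tested against its chromosome neighbours, as described below, the difference was 0.02 (adjusted p 0.864) and the call was lost. ATXN3 has no partner among the genes described here. Of its relatives only the retrogene ATXN3L was looked up, and it had a mean of 0 CPM in all groups.

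ATXN7 and ATXN7L3, both of the SAGA deubiquitinase module, behaved differently. ATXN7 (ENSG00000163635, chr3:63898399-64003453, plus strand) had 74.1, 68.5 and 80.5 CPM in the parental libraries, 76.7, 69.6 and 71.5 in clone 15 and 79.3, 80.9 and 70.6 in clone 37. All 3 groups overlapped. The log2 differences were 0.02 for clone 37 against parental (SE 0.07, adjusted p 0.808), -0.06 for clone 15 (SE 0.08, adjusted p 0.551) and 0.08 between the clones (SE 0.07, adjusted p 0.287), none of them called. A second annotated ATXN7 ID holds 97.9% of the 75-base words of its longest transcript, but that ID is not among the counted genes. Another counted gene shares 0.384% of the words.

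ATXN7L3 (ENSG00000087152, chr17:44191805-44200113, minus strand), which activates the SAGA deubiquitinase, had 69.5, 72.9 and 71.3 CPM in the parental libraries, 103, 114 and 114 in clone 15 and 67.7, 65.6 and 66.1 in clone 37. Clone 15 stood far above both other groups, and clone 37 lay just below parental without overlap. ATXN7L3 rose by 0.60 in clone 15 (SE 0.08, adjusted p 9.2e-07), a fold of 1.52 and the largest rise of the 10 genes against parental. In clone 37 the value was -0.13 (SE 0.06, adjusted p 0.0895), which passed the threshold only where protein-coding genes alone were tested (-0.14, adjusted p 0.0423) or against its chromosome neighbours. The clones differed by -0.73 (SE 0.06, adjusted p 4.68e-11), the largest difference between them among the 10 genes.

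The log2 ratio of ATXN7 to ATXN7L3 was 0.06 ± 0.14 in the parental line, 0.21 ± 0.10 for clone 37 and -0.61 ± 0.16 for clone 15 (SD, 3 libraries each). Every clone 15 library was below all others, while parental and clone 37 overlapped. The exact permutation p was 0.1 (adjusted 0.12) for clone 15 against either group and 0.2 (adjusted 0.218) for clone 37 against parental. With trends in GC content and length removed, the difference between clone 15 and parental was -0.37 in place of -0.67.

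ATN1 and RERE, the atrophins, rose together in clone 15. ATN1 (ENSG00000111676, chr12:6924463-6942321, plus strand) had 138, 118 and 130 CPM in the parental libraries, 170, 205 and 183 in clone 15 and 143, 136 and 136 in clone 37. Clone 15 was above both other groups in every library, and clone 37 overlapped with parental. ATN1 rose by 0.50 in clone 15 (SE 0.08, adjusted p 1.55e-05). In clone 37 the value was 0.08 (SE 0.06, adjusted p 0.295), or 0.03 without parental replicate 2 and 0.12 without parental replicate 1, and was not called in either case. Clone 37 was below clone 15 by 0.42, a log2 difference of -0.42 (SE 0.06, adjusted p 7.6e-07).

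RERE (ENSG00000142599, chr1:8352397-8817643, minus strand) had 118, 119 and 126 CPM in the parental libraries, 176, 187 and 171 in clone 15 and 159, 156 and 148 in clone 37. The groups did not overlap, with parental lowest and clone 15 highest. RERE rose against parental by 0.33 in clone 37 (SE 0.06, adjusted p 8.91e-05). In clone 15 it rose by 0.53 (SE 0.08, adjusted p 3.17e-06). Of the 10 genes only ATXN2 and RERE were called higher in both clones, and only ATXN1 and ATXN3 lower in both. The difference of -0.20 between the clones (SE 0.05, adjusted p 0.00264) lost its call with trends in GC content and length removed (-0.03).

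The log2 ratio of ATN1 to RERE was 0.09 ± 0.12 in the parental line, 0.06 ± 0.10 for clone 15 and -0.16 ± 0.04 for clone 37 (SD, 3 libraries each). Parental and clone 15 overlapped, with an exact permutation p of 0.9 (adjusted 0.9). Every clone 37 library was below all others, with an exact permutation p of 0.1 (adjusted 0.12) against either group.

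**Figure D3:**
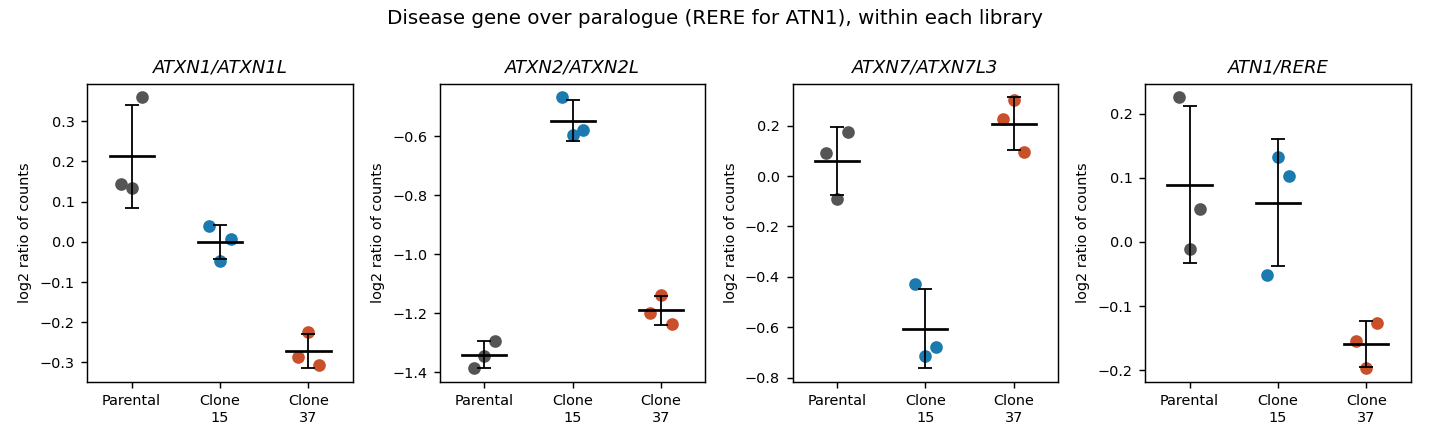
Log2 ratio of the counts of each disease gene to those of its relative (vertical axes, with a separate range in each panel) in the 9 libraries, with the group mean as a line and the SD as an error bar. ATXN2/ATXN2L is highest in clone 15, ATXN7/ATXN7L3 is lowest there, and ATXN1/ATXN1L and ATN1/RERE are lowest in clone 37.

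TBP, which has the longest uninterrupted tract of the 10 genes, was called in neither clone against parental. TBP (ENSG00000112592, chr6:170554302-170572870, plus strand) had 33.9, 33.2 and 32.5 CPM in the parental libraries, 38.3, 36.1 and 33.6 in clone 15 and 31.5, 32.5 and 28.9 in clone 37. Clone 15 and parental overlapped, and the highest clone 37 library and the lowest parental library were both at 32.5. The log2 difference from parental was -0.13 for clone 37 (SE 0.08, adjusted p 0.177). For clone 15 it was 0.09 (SE 0.09, adjusted p 0.425). Clone 37 was lower than clone 15, with a value of -0.22 (SE 0.08, adjusted p 0.0190), and that call was lost without clone 15 replicate 1 (-0.17), clone 37 replicate 1 (-0.23) or clone 37 replicate 3 (-0.18).

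Several of these changes had the sign of those of the genes around them on the chromosome. For each gene the median change of the 100 nearest tested genes was computed. Around ATXN1L this median was 0.26 in clone 37 and -0.22 in clone 15, and around ATXN2L it was 0.31 and -0.29. Both genes lie on chromosome 16, and both had the sign of their surroundings, above 0 in clone 37 and below 0 in clone 15, although ATXN2L in clone 37 and ATXN1L in clone 15 were not called. Around RERE the median was 0.37 in clone 37 and 0.36 in clone 15, and around ATXN3 it was -0.32 and 0.08. Across the 10 genes the sign was that of the neighbours for 6 genes in clone 37, for 9 in clone 15 and for 7 in the direct comparison of the clones. The share of all tested genes with the sign of their own neighbours was not computed. These counts therefore say nothing particular about the 10 genes. The part of the surroundings in each gene's change was not tested beyond the comparison that follows.

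Tested against the neighbours' median, 5 of 10 genes were called in clone 37, where 43.1% of all genes were called in this way. ATXN3 kept a difference of -0.31 (adjusted p 0.00188) and ATXN1 one of -0.38 (adjusted p 0.000681), while ATXN1L (0.04), ATXN2 (0.10) and RERE (-0.04) lost theirs. ATXN2L (-0.19), ATXN7L3 (-0.25) and TBP (-0.29), not called directly, were lower than their neighbours. In clone 15, 6 of 10 were called against a background of 42.8%: ATXN2 (0.25), ATXN2L (-0.19), ATXN7L3 (0.33), ATN1 (0.25), RERE (0.19) and ATXN3 (-0.30). ATXN1 (-0.15) lost its call there. Between the clones 5 of 10 were called against a background of 50.8%, namely ATXN7L3 (-0.59), TBP (-0.28), ATXN1 (-0.26), ATN1 (-0.23) and RERE (-0.22). ATXN1 was thus above clone 15 in clone 37 directly (0.19) and below it relative to its neighbours. ATXN2L, the second largest direct difference between the clones, was at 0.03 relative to its neighbours (adjusted p 0.716).

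**Figure D4:**
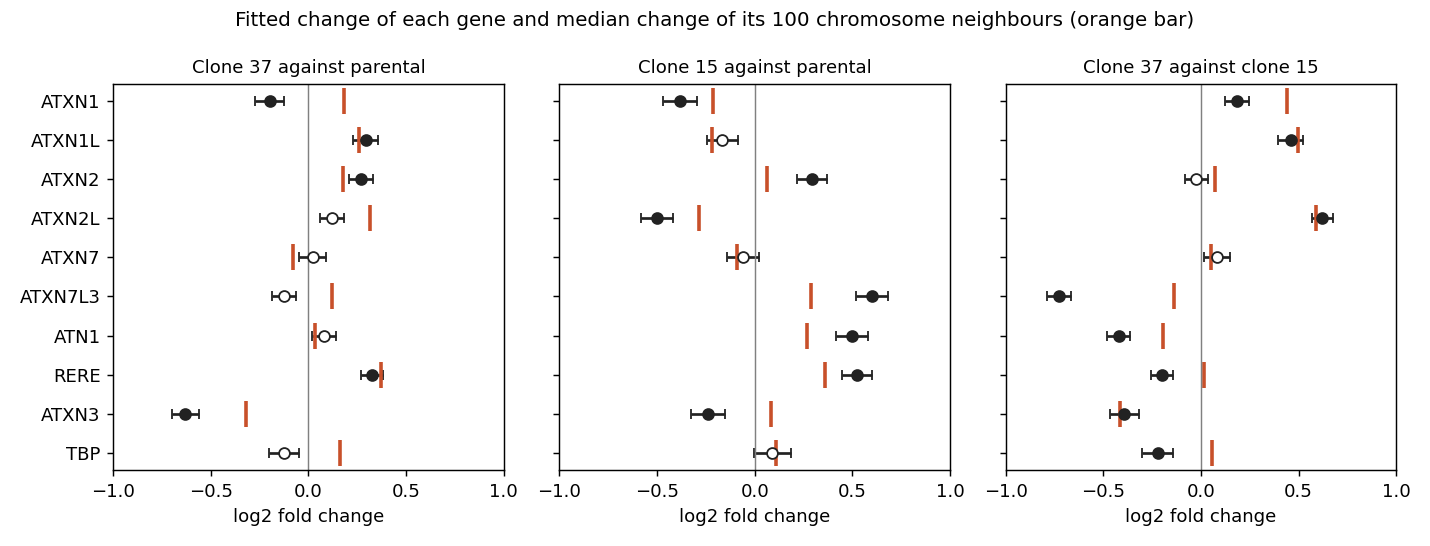
Fitted log2 fold change (horizontal axes) of the 10 genes in the 3 comparisons, with the SE as an error bar, filled points for adjusted p under 0.05 and an orange bar at the neighbours' median, taken over 100 genes on the same chromosome. ATXN1L lies within 1 SE of its neighbours' median in all 3 panels, whereas ATXN7L3 is more than 1 SE away in all 3.

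Genes that work with these proteins were read from lists of known partners. The lists were not tested as sets, and each is described by its counts of called genes beside the background shares given above. For ATXN1, CIC itself was at 83.1 CPM in the parental libraries, fell by 0.21 in clone 37 (adjusted p 0.0150) and rose by 0.56 in clone 15 (adjusted p 8.88e-06). Of CIC and the target genes of its repression, 7 were tested in every comparison. Of these, 3 were called in clone 37, each lower, and 2 in clone 15, each higher. The growth factor signalling inhibitor SPRY2 (-1.17) and the transcription factor ETV1 (-1.12) led the falls in clone 37, and the phosphatase DUSP4 (1.86) led the rises in clone 15. Between the clones 1 of the 7 was higher and 4 lower in clone 37. The median log2 fold change of the 7 was -0.21 for clone 37, 0.03 for clone 15 and -0.77 between them. ETV4 and DUSP6 passed the filter on low counts only where clone 15 was compared, the group in which they were highest, and are left out of these counts. ETV4 was at 0.258 CPM in parental, 0.913 in clone 15 and 0.176 in clone 37, and DUSP6 was at 0.649, 1.18 and 0.397. ETV1, ETV4, ETV5, DUSP6 and SPRY4 had group means under 4 CPM.

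Of the 7 ATXN2 partners, 4 were called in clone 37, each higher, and in clone 15, 2 rose and 2 fell. The poly(A)-binding protein PABPC4 (0.47) and LSM12 (0.44) had the largest rises in clone 37. In clone 15 PABPC1, the main cytoplasmic poly(A)-binding protein, fell by 0.78 on the log2 scale and PABPC4 rose by 0.36. Of 8 ATXN3 partners in the ubiquitin pathway, 5 were called in clone 37, each higher, led by the ubiquitin ligase STUB1 (0.56) and the VCP cofactor NPLOC4 (0.37). In clone 15, 4 rose, led by NPLOC4 (0.60) and the segregase VCP (0.56), and 1, STUB1, fell (-0.25).

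Of 22 other genes of SAGA and its related deubiquitinases, 8 rose and 5 fell in clone 37 and 7 rose and 5 fell in clone 15. USP51 (-1.55), a deubiquitinase that also uses ATXN7L3, and the acetyltransferase KAT2A (0.78) changed most in clone 37, and TAF6L (0.93) and TAF10 (0.76) in clone 15. USP22, the main catalytic partner of ATXN7L3, had values of 0.06 (adjusted p 0.408) and 0.15 (adjusted p 0.164). Of 28 proteins that form complexes with TBP, 11 rose and 4 fell in clone 37, and 7 rose and 7 fell in clone 15. TAF4B (-0.65) and TAF1C (0.64) had the largest changes in clone 37, and TAF10 (0.76) and the RNA polymerase III factor BRF1 (0.49) in clone 15. TAF9, TAF9B, TAF10 and TAF12 stand in both lists. Of 9 partners of ATN1 and RERE, 4 rose and 1 fell in clone 37, led by the ubiquitin ligase WWP1 (0.61) and BAIAP2 (0.56). In clone 15, 3 rose and 1 fell, led by the nuclear receptor NR2E1 (0.93), at 1.07 CPM in the parental libraries, and WWP1 (-0.33).

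Among 5 other relatives that were tested, ATXN7L1 (0.31) and ATXN7L2 (0.32) rose and ATXN10 (-0.41) fell in clone 37, and ATXN7L2 rose (0.35) and ATXN10 fell (-0.78) in clone 15. ATXN10 carries its disease repeat in an intron and not as CAG codons. HTT, which carries the CAG repeat of Huntington disease, fell in clone 37 (-0.31) and rose in clone 15 (0.21, adjusted p 0.0341). CACNA1A was not tested, at group means of 0.0304 to 0.197 CPM.

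Genes with long CAG runs did not move in a common direction. Of the 37 coding genes with at least 10 units in a row, 5 are among the 10 genes described here, and 28 of the other 32 were tested. In clone 37, 10 rose and 12 fell. Clone 15 had 8 that rose and 6 that fell, and between the clones 7 were higher and 12 lower in clone 37. Called in either direction were thus 22, 14 and 19 of 28. Among all protein-coding genes tested, 59.7%, 56.5% and 63.1% were called. The median log2 fold change of the 28 was 0.02 for clone 37, 0.04 for clone 15 and -0.12 between them.

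Levels of different genes are compared per length, as CPM per kb of all exon bases. In parental cells ATXN2L was highest at 49.3 ± 3.27 CPM per kb, followed by ATN1 at 27.1 ± 2.14, TBP at 14.3 ± 0.287, ATXN7L3 at 13.4 ± 0.320 and RERE at 10.5 ± 0.345 (SD, n = 3). These 5 did not overlap with their neighbours in the order. ATXN7 at 8.10 ± 0.656, ATXN1L at 7.96 ± 0.450 and ATXN2 at 7.68 ± 0.561 followed, and neighbours among these 3 overlapped. ATXN3 at 5.05 ± 0.0613 and ATXN1 at 4.44 ± 0.572 were lowest and overlapped too. In clone 37 RERE at 13.4 ± 0.511 was at rank 3, overlapping with TBP at 13.4 ± 0.804, which overlapped with ATXN7L3 at 12.5 ± 0.203. In clone 15 ATN1 at 39.1 ± 3.65 and ATXN2L at 35.6 ± 2.61 overlapped at the top. Other places in the order depend on the length used. Per kb of all exon bases ATXN7L3 was above TBP in clone 15, ATXN2 was above ATXN7 in both clones and ATXN3 was below ATXN1 in clone 37, none of which was so in parental. By the longest transcript all 3 orders already held between the parental means, at 18.7 for ATXN7L3 and 17.0 for TBP, 26.9 for ATXN2 and 10.9 for ATXN7, and 7.02 for ATXN3 and 7.46 for ATXN1.

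Genes whose levels followed these most closely over the 9 libraries were found by the Euclidean distance between log2 CPM values centred on each gene's mean, among 11314 protein-coding genes, for the 8 members called against parental. Nearest were ZNF460 and RBM28 to ATXN1, E2F4 and DPP8 to ATXN1L, OSBPL2 and CERS5 to ATXN2, and RIPOR1 and KAT8 to ATXN2L. For the others they were TPST1 and ATP2C1 to ATXN3, PAF1 and LETM1 to ATXN7L3, ADPRS and TMEM132A to ATN1, and HAND1 and UBL7 to RERE. The distances ran from 0.103 (TPST1) to 0.191 (RBM28), against a median distance of 0.780 to 1.15 over all genes. The nearest of so many genes lie below the median by selection, so this contrast does not show a link between the genes. E2F4, RIPOR1 and KAT8 lie on chromosome 16 like the genes they follow, and CERS5 on chromosome 12 like ATXN2. The other 12 lie on other chromosomes than the gene they follow. E2F4 itself carries 13 uninterrupted CAG units.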

How the data were processed

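Total RNA of 9 HEK293T libraries was depleted of ribosomal RNA and made into directional paired-end libraries from 500 ng of input with 13 cycles of amplification, per the labels' protocols. The deposited values are raw counts, 1 file per library, headed by 4 summary entries that name no gene and were not used in tests or library totals. Of a library's read pairs, 19.2% to 34.6% had no feature and 4.59% to 14.0% had several map positions, both by group in the report, 3.76% to 4.40% fell on more than 1 gene and 1.24% to 5.16% unmapped. The submitters' processing notes name STAR 2.7.10a, FastQC 0.11.9 and the build hg38. The annotation release is not given in the sources used here. Column 4, which held 92.6% to 94.0% of the stranded gene counts, was used.

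Of 60683 gene IDs, 60370 had a symbol and 58496 matched GENCODE 29 on GRCh38, which supplied positions, lengths and transcript sequences. All 10 genes matched both. Counts were filtered with filterByExpr, normalised with TMM factors and put through robust glmQLFit and glmQLFTest of edgeR 4.0.16 (R 4.3.3), each pair of groups alone on its 6 libraries, with Benjamini-Hochberg adjustment over all genes tested. SEs are the log2 fold change over the square root of F. Two-sided exact permutation tests compared log2 ratios within libraries. When tested on simulated data drawn for clone 37 against parental (16501 genes), the test recovered 86.7% of 2-fold and 66.7% of 1.5-fold changes, and 7.93% of its calls were false. For clone 15 against parental (17703 genes) the shares were 81.8%, 59.6% and 7.89%. For clone 37 against clone 15 (17712 genes) they were 87.2%, 64.6% and 6.41%. In these simulations small differences were often missed, and false calls exceeded the nominal rate. Each was a single draw in which 200 genes were changed, a far smaller share than was called in the data. The shares need not hold for the comparisons reported here.

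All 10 genes are named, with HTT and CACNA1A. In each partner list the 2 called genes with the largest change from parental are named, and other names in these lists were added after values were seen. The 2 nearest protein-coding genes with a mean of at least 5 CPM are named, by log2 CPM with a pseudocount of 0.5. The genes and lists were chosen with earlier results of these data known. Alternatives were RLE size factors, DESeq2 1.42.0, no filter on low counts, unstranded counts, all 9 libraries in 1 fit, a replicate block, libraries thinned to the smallest total, removal of GC and length trends, a test against 100 neighbouring genes, a fit of protein-coding genes alone and omission of each replicate. Length by the longest transcript and the list of genes with at least 10 CAG units were added after the data were seen. Reporter transcripts were not analysed here, and some results are not reported here.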

Additional observations from a re-analysis of the deposited data

Results flagged for a closer look

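The 2 clones differed from each other beyond the spread between their replicates in 8 of the 10 genes, by the direct edgeR test of clone 37 against clone 15 (adjusted p under 0.05), which is a test of the difference between their changes from parental. Clone 37 was higher in ATXN2L (0.62), ATXN1L (0.46) and ATXN1 (0.19). It was lower in ATXN7L3 (-0.73), ATN1 (-0.42), ATXN3 (-0.39), TBP (-0.22) and RERE (-0.20). The share of all genes called in this comparison was 57.7%.

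Counts on the strand opposite to ATN1, which the comparisons above do not use, were higher in both clones than in parental cells. They numbered 16, 21 and 26 in the parental libraries, 32, 32 and 45 in clone 37 and 88, 82 and 68 in the deeper clone 15 libraries. On the scale of the sense-strand library totals the log2 fold change was 0.92 in clone 37 (edgeR, adjusted p 0.0111) and 0.84 in clone 15 (adjusted p 0.0238), where 25.1% and 30.3% of all genes tested on that strand were called. As a share of the stranded counts of ATN1 they were 1.06% to 1.51% in parental, 2.00% to 2.62% in clone 37 and 1.34% to 1.95% in clone 15, so clone 15 overlapped with parental in this share. No exon of another gene is annotated opposite to the ATN1 exons. ATN1 is shown because it alone of the genes described here was called on the opposite strand. The others were tested there and not called, or had too few counts there to be tested.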

How the results depend on the processing

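Of 480 alternative values for the log2 fold changes of the 10 genes, 440 kept their direction and their side of the threshold. A call was lost in 21 and gained in 6, and the sign changed in 18, which include 4 of the lost calls and 1 of those gained. The causes were not tested. Sign changes in clone 37 against parental were ATXN7 with unstranded counts (-0.021), thinned (-0.0026) and among the values with a replicate left out (-0.029 to 0.056), and ATXN2L (-0.19) and RERE (-0.041) against neighbours. In clone 15 against parental they were ATXN7 (0.073) and ATXN3 (0.053) with GC and length trends removed, and ATXN1L (0.071), ATXN7 (0.046) and TBP (-0.00024) against neighbours. Between the clones they were ATXN2 with unstranded counts (0.0061), trends removed (0.095) and a replicate left out (-0.078 to 0.0018), and ATXN1 (-0.26), ATXN1L (-0.043) and ATXN3 (0.018) against neighbours. The ATN1/RERE log2 ratio in clone 15 against parental, -0.028 with all libraries, ran from -0.078 to 0.041 with a replicate left out and was above 0 without parental replicate 1 (0.041) or clone 15 replicate 1 (0.029). The number of the 10 genes called ran from 4 to 6 in clone 37, 6 to 8 in clone 15 and 5 to 8 between the clones, the lowest being 5 against neighbours. With a replicate left out it ran from 4 to 5, 6 to 8 and 6 to 8. All genes called ran from 7037 to 10032, 7484 to 9777 and 8595 to 11033. With no filter on low counts the median of all genes in clone 15 was 0.135 in place of 0.0153. Replicate numbers did not pair the samples: deviations of same-numbered libraries correlated at -0.257 to 0.0927, and not every library correlated best with its own number. With the replicate block 5, 7 and 8 of the 10 genes and 8375, 8708 and 10491 of all genes were called. By the longest transcript, parental CPM per kb were 70.1 for ATXN2L, 29.6 for ATN1, 26.9 for ATXN2, 18.7 for ATXN7L3, 17.0 for TBP, 15.1 for RERE, 10.9 for ATXN7, 8.62 for ATXN1L, 7.46 for ATXN1 and 7.02 for ATXN3.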
